A study of Mus musculus with 4 samples.

Results

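The subject is the STAT5 pathway downstream of GM-CSF, the cytokine in which the cells of this study grew, read through 8 genes: the kinase gene Jak2, the transcription factor genes Stat5a and Stat5b, and the STAT5-induced genes Cish, Socs1, Socs2, Pim1 and Pim2. The non-control probes of the array files that carry one of these names were all taken, with no rule on their values. That gave 14 of 41150 probes and 8 of 28498 genes. The arrays hold 2 wild-type samples and 2 miR-223 knockout samples, all male mice of strain C57BL/6. Marrow of both genotypes grew for 4 days in GM-CSF at 40 ng/ml, after which immature granulocytes in expansion were sorted, and their total RNA was labelled with Cy3 for 1-colour Agilent arrays. The mice's age, how the knockout allele was built and whether replicates came from separate animals are not given in the sources used here, so p-values measure only the spread between these samples, which may be technical. The comparison asks whether transcripts of this pathway differ when miR-223, a microRNA abundant in granulocytes and their precursors, is absent.

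GM-CSF binds a receptor of an alpha chain and a shared beta chain, and JAK2 is the tyrosine kinase attached to the beta chain. JAK2 phosphorylates STAT5A and STAT5B, which pair, enter the nucleus and bind DNA with the letters TTCNNNGAA, where N is any base. Among the genes switched on there are Cish, Socs1 and Socs2, whose proteins carry an SH2 domain and a SOCS box and dampen the receptor and its kinase, and Pim1 and Pim2, which encode serine/threonine kinases of cell survival. Levels of the feedback genes are therefore commonly used as a readout of STAT5 activity in myeloid cells.

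The deleted microRNA and the start region of Cish are printed because the first is what separates the genotypes and the second carries the STAT5 letters in the best-known STAT5 target. In the microRNA the capitals mark the seed, bases 2 to 8. In Cish they mark the letters TTCNNNGAA, which read the same on both strands, in the stretch from 250 bases before the RefSeq start to just past the second match (chr9:107296409-107296683, plus strand, GRCm38). Both are from RefSeq tables of that build.
mmu-miR-223-3p: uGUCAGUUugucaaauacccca
Cish: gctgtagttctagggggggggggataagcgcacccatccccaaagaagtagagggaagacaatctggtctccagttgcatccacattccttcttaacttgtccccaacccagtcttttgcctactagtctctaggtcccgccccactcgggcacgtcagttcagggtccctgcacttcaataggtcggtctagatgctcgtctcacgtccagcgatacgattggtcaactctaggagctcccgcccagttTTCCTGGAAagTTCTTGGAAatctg

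The 2 matches in Cish begin at bases 1 and 12 of the annotated transcript and lie 2 bases apart. Of 32851 start windows of 300 bases (250 before the start and 50 after it), 8.30% held 1 match or more and 0.457% held 2 or more. Counted by gene, with the best window of each of 27025 genes, the shares were 9.55% and 0.540%. The genes were matched by symbol, and 7 of the 8 were found, with 10 windows in all (Socs2 was not matched). Cish was the 1 gene among these 7 with a match in its windows. The RNA site complementary to the miR-223 seed, written as DNA aactgac, was in 0 of the 14 probes and in 0.372% of all 41150 probes. A probe shows only 60 bases of a transcript, so that this says nothing of the rest.

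All 14 probes were well above background on all 4 arrays, with intensities from 25.2 to 21947 before scaling, so that each gene was measured in both genotypes. Levels are log2 intensities relative to the 75th percentile of each array, which stands at 0, and differences are knockout minus wild type. Since probes differ in how brightly they bind, no level of one gene is set against another's. For each gene the probe with the highest mean level is given first. Of the 8, 0 reached an adjusted p under 0.05 in limma's test over 16773 genes (Benjamini-Hochberg), and 0 had an unadjusted p under 0.05. Over all genes, 0 (0%) passed the adjusted threshold, while 7.95% were higher and 5.54% lower in knockout at an unadjusted p under 0.05. An exact permutation test of 2 arrays against 2 cannot go below a two-sided p of 0.333.

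For 2 of the 8 genes, Cish and Pim2, the knockout arrays were both above the wild-type arrays, against 27.7% of all genes tested. They were both below for 1 gene, Jak2, against 20.2% of all genes. The median difference of the 8 genes was 0.08, with 6 positive and 2 negative, beside a median of 0.03 over all genes, of which 54.5% were positive and 45.5% negative. With an array left out, the median of the 8 genes ran from 0.04 to 0.14.

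**Figure D1:**
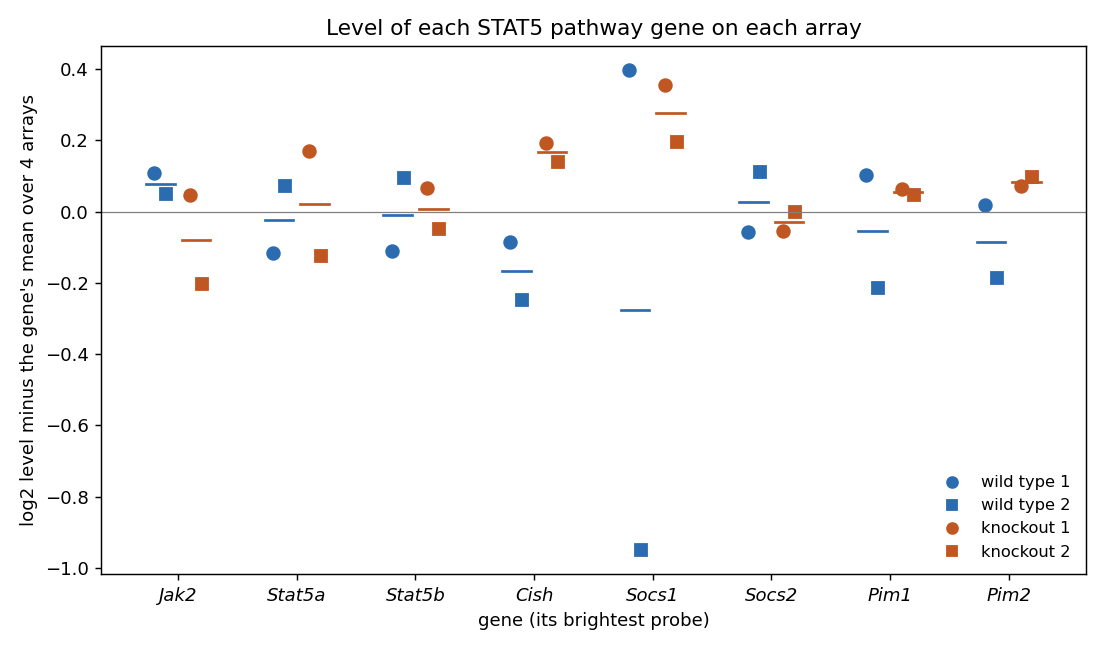
Level of each of the 8 genes on each array, as log2 level minus the gene's own mean over the 4 arrays (blue, wild type; orange, knockout; circles, replicate 1; squares, replicate 2; short lines, group means). Cish and Pim2 have both knockout arrays above both wild-type arrays, Jak2 has them below, and wild-type array 2 stands alone for Socs1.

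Jak2 carries the signal from the receptor to STAT5. Its level was 2.92 and 2.86 in wild type and 2.85 and 2.60 in knockout. The groups thus did not overlap, but knockout array 1 was within 0.01 of wild-type array 2. The difference was -0.16 ± 0.15 (SE, n = 2 arrays per group; limma adjusted p = 0.67), with a 95% interval of -0.55 to 0.23. A dimmer Jak2 probe, at -1.11 and -1.58 in wild type and -1.36 and -1.25 in knockout, gave a difference of 0.04 ± 0.20, with the groups overlapping. The probes lie on chromosome 19 at 29386361 to 29386420 and at 29363211 to 29363270 (mm9, the build of the array files).

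Stat5a and Stat5b encode near-identical factors from neighbouring genes on chromosome 11. Stat5a was at 1.12 and 1.31 in wild type and at 1.40 and 1.11 in knockout (probe at 100746144 to 100746203, mm9). The knockout arrays enclosed the wild-type arrays, and the difference was 0.05 ± 0.17 (SE, n = 2 per group; limma adjusted p = 0.93; 95% interval -0.40 to 0.49). For Stat5b the brightest probe was at 2.54 and 2.74 in wild type and at 2.72 and 2.60 in knockout (100642099 to 100642158).

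Here the wild-type arrays enclosed the knockout arrays, and the Stat5b difference was 0.02 ± 0.14 (limma adjusted p = 0.97; 95% interval -0.36 to 0.40). Both Stat5 differences turned sign under some of the other settings. Of the remaining Stat5b probes, one spans more than a kilobase of the gene and so crosses a splice junction, with a difference of 0.15 ± 0.14. The other is named from a cDNA clone and not from the RefSeq transcript, and gave 0.16 ± 0.13. Both dim probes had their knockout arrays above the wild-type arrays, which the brightest did not. The share of all probes above was not computed, so nothing is read from this.

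Cish, the feedback inhibitor whose start region is printed above, had the smallest p of the 8 genes. Its level was 5.14 and 4.97 in wild type and 5.41 and 5.36 in knockout (chromosome 9, probe at 107204196 to 107204255, mm9). Both knockout arrays were higher, by more than the gap of 0.16 between the wild-type arrays. The difference was 0.33 ± 0.13 (SE, n = 2 per group; 1.26-fold), with a 95% interval of -0.02 to 0.68, an unadjusted limma p of 0.0583 and an adjusted p of 0.386. Its rank by p was 2534 of 16773 genes, and 27.9% of all genes had a larger difference in either direction. The adjusted p stayed between 0.297 and 0.9 over all alternative settings, and the difference between 0.25 and 0.41.

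Socs1, the inhibitor that blocks JAK kinases most directly, showed the widest range over the arrays. It was at 2.19 and 0.84 in wild type and at 2.15 and 1.99 in knockout (chromosome 16, probe at 10783951 to 10784010, mm9). Wild-type array 2 was low, and wild-type array 1 was above both knockout arrays, so that the groups overlapped. The difference of 0.55 ± 0.47 (SE, n = 2 per group; limma adjusted p = 0.645) had a 95% interval from -0.71 to 1.81. Without wild type replicate 2 it was -0.12, and without wild type replicate 1 it was 1.23. The sign and size of this value therefore rest on the wild-type arrays.

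Socs2, a further feedback inhibitor and best known as a brake on growth hormone signalling, was at 1.02 and 1.19 in wild type and at 1.02 and 1.08 in knockout (chromosome 10, probe at 94875066 to 94875125, mm9). The knockout arrays lay within the wild-type range. The difference was -0.06 ± 0.13 (SE, n = 2 per group; limma adjusted p = 0.881), with a 95% interval of -0.41 to 0.30. Thus the feedback inhibitors did not share a pattern over the 4 arrays: the knockout arrays were above wild type for Cish and within its range for Socs1 and Socs2. Whether these genes' differences differ from each other was not tested.

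**Figure D2:**
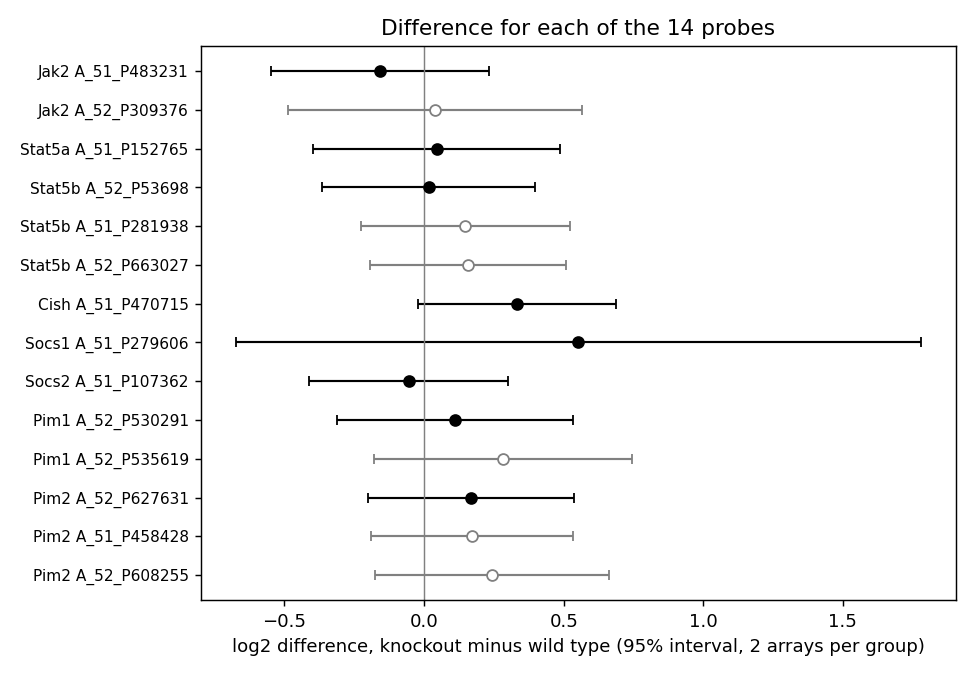
Log2 difference, knockout minus wild type, for each of the 14 probes with its 95% interval from limma fitted over all tested probes (filled, the brightest probe of a gene; open, its other probes). Every interval includes 0, that of Cish by the smallest margin and that of Socs1 with the greatest width.

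Pim1 encodes a survival kinase that needs no activating phosphorylation and is controlled through its transcript level. The probe on its own strand was at 2.63 and 2.31 in wild type and at 2.59 and 2.58 in knockout (chromosome 17, 29630740 to 29630799, mm9). The knockout arrays lay between the wild-type arrays, with a difference of 0.11 ± 0.16 (SE, n = 2 per group; limma adjusted p = 0.786; 95% interval -0.31 to 0.54). A second probe with the name Pim1 lies at 29628627 to 29628686 in reverse orientation. Over 21436 probes named through RefSeq, the order of a probe's coordinates followed the strand of its gene in 99.7%. The second Pim1 probe is thus written on the strand opposite to the gene, and it comes from a cDNA clone. Both are shown, 5′ to 3′, since they read opposite strands.
Pim1, gene strand: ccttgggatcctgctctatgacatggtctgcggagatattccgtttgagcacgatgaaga
Pim1, opposite strand: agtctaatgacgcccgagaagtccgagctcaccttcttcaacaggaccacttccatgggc

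The opposite-strand probe was dim, with intensities of 29.7 to 45.7, and stood at levels of -3.70 and -4.03 in wild type and -3.49 and -3.68 in knockout. Its knockout arrays were both higher, with a difference of 0.28 ± 0.17 (SE, n = 2 arrays per group; limma adjusted p = 0.552). Read by strand, it does not measure Pim1 messenger RNA.

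Pim2, the close relative of Pim1 on the X chromosome, has 3 probes. The brightest was at -0.83 and -1.03 in wild type and -0.77 and -0.75 in knockout (7460211 to 7460264, mm9). Both knockout arrays were higher, with a difference of 0.17 ± 0.14 (SE, n = 2 per group; limma adjusted p = 0.628; 95% interval -0.20 to 0.53). A second probe overlaps it by position, with a shared run of 32 bases, and gave 0.17 ± 0.14, so that these are not independent readings. The third, further upstream in the gene, gave 0.24 ± 0.16. All 3 probes had both knockout arrays above both wild-type arrays, and their intervals all included 0.

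Genes with the pattern most like that of Cish were sought by the root mean square difference of the 4 array values after each gene's mean was removed. The closest were Mvb12b (0.0078 log2 units), Marf1 (0.011), Rplp1 (0.013), Sap30l (0.014) and Gna13 (0.017). Their differences ran from 0.31 to 0.35, near that of Cish, and over 4 arrays such likeness is a description only. Closest to Socs1, the gene with the widest range (1.35), were C2 (0.086), Tshr (0.11), Rab26 (0.11), Ccr7 (0.12) and Tsks (0.13). These share with Socs1 a low value on wild-type array 2. Their differences ran from 0.42 to 0.72.

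Around the 8 genes, receptor and adaptor genes had a median difference near that of all genes. Of 9 tested genes of the GM-CSF receptor, related receptor chains and adaptors, 6 had a positive and 3 a negative difference. Over all genes, 54.5% were positive. Of these 9 genes, 0 passed the adjusted threshold (limma). Their median was 0.04, and from -0.02 to 0.08 with an array left out. The alpha chain gene Csf2ra was at 6.65 and 6.69 in wild type and 6.86 and 7.04 in knockout (difference 0.28 ± 0.13). The second beta chain gene of the mouse, Csf2rb2, which is not that of the shared chain, was at 5.40 and 5.42 against 5.22 and 5.34 (-0.13 ± 0.12). The shared beta chain gene Csf2rb, named here after its values were seen, was at 6.32 and 6.59 against 6.34 and 6.43 (-0.07 ± 0.15). Shc1, an adaptor gene, had a difference of 0.14 ± 0.13. Gab2, another adaptor gene and the 1 gene of the list at an unadjusted p under 0.05, had 1.30 ± 0.40. Its dim probe was well above background on both knockout arrays but on only 1 wild-type array. Gab2 was thus tested only through the group in which it is high, and nothing is read from that p. The direction count and median of this list include Gab2 and so rest partly on the filter on background. The other JAK kinases had positive differences: Jak1 0.26 ± 0.16, Tyk2 0.13 ± 0.15 and Jak3 0.06 ± 0.19 (other probes 0.25 and 0.27). On their brightest probes, 0 of these 3 had an unadjusted p under 0.05. The other Jak1 probes gave 0.09 ± 0.13 and 0.52 ± 0.15, the second with an unadjusted limma p of 0.0205, so that the Jak1 probes differ in size.

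Among 4 other STAT factors analysed here, 3 had both knockout arrays above both wild-type arrays, against 27.7% of all genes. Stat4, which acts in interleukin-12 signalling, was at 0.82 and 0.65 in wild type and 1.13 and 1.18 in knockout (0.42 ± 0.13). Stat3, which acts after interleukin-6 and G-CSF, was at 3.69 and 3.63 against 4.10 and 4.02 (0.40 ± 0.12). Stat6, of interleukin-4 signalling, had 0.20 ± 0.12 with other probes at 0.06 and 0.20, and Stat2, of interferon signalling, had -0.04 ± 0.14. Stat4 and Stat3 had an unadjusted p of 0.0282 and 0.0269 and adjusted p of 0.327 and 0.326 (limma). The median of the list was 0.30, beside 0.03 over all genes, and 0 of 4 passed the adjusted threshold.

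Of the other SOCS genes, 1 of 5 had a positive and 4 a negative difference (median -0.12). Socs3, a feedback inhibitor of STAT3 signalling, was at 3.09 and 3.11 in wild type and at 2.70 and 2.57 in knockout. Both knockout arrays were lower, and the difference was -0.47 ± 0.13 (limma unadjusted p = 0.0172, adjusted p = 0.3). Socs6, which acts on growth factor receptors, was at 1.25 and 1.39 against 0.94 and 0.62, a difference of -0.54 ± 0.17 (other probes -0.51 and -0.44). Socs5 had 0.26 ± 0.17 and Socs7 -0.12 ± 0.22. None of the 5 passed the adjusted threshold, and 2 were lower at an unadjusted p under 0.05, where 5.54% of all genes were. Without wild type replicate 1 the median of the list was -0.40 and without wild type replicate 2 it was 0.04.

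**Figure D3:**
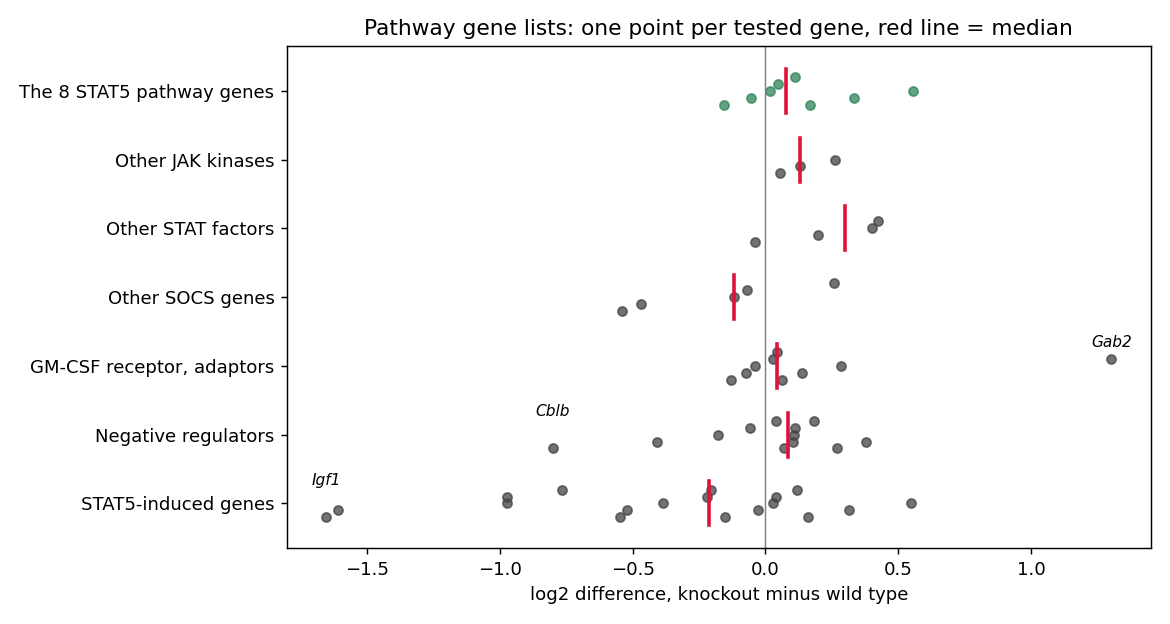
Log2 difference, knockout minus wild type, of each tested gene in the 8-gene group (green) and in 6 lists of related genes (grey), with the median of each list in red. The 8 genes lie between -0.16 and 0.55, while STAT5-induced genes reach -1.65 (Igf1), and medians run from -0.21 to 0.30.

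Among 12 negative regulators of the pathway, 8 had a positive and 4 a negative difference, with a median of 0.09. That median was 0.04 without miR-223 knockout replicate 2 and 0.00 without wild type replicate 2. Ptpn1, a tyrosine phosphatase gene, was at 6.61 and 6.63 in wild type and 6.96 and 7.04 in knockout (0.38 ± 0.12, another probe 0.27). Cblb, a ubiquitin ligase gene, was at -4.41 and -4.57 against -5.47 and -5.11 (-0.80 ± 0.18). Its probe was dim, with levels below those of every probe of the 8 genes, though well above background on all 4 arrays. Usp18, which restrains interferon signalling, had -0.41 ± 0.19, and Pias3, an inhibitor of STAT binding, 0.27 ± 0.14 (another probe 0.41). At an unadjusted p under 0.05, 1 of the 12 was higher and 1 lower, where 7.95% and 5.54% of all genes were, and 0 passed the adjusted threshold (limma).

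Of 18 other tested genes listed here as STAT5-induced in various cell types, 12 had a negative difference, against 45.5% of all genes, and 6 a positive one. The median was -0.21. The list, and the 12 with a negative difference, include Bcl6 (-0.22 ± 0.17, named here after its values were seen). Whether STAT5 raises or lowers Bcl6 in these cells was not tested, so its sign is not read as more or less STAT5 activity. Some differences of either sign were smaller than their SE, that of Egr1 (-0.77 ± 0.98) among them. Whether the differences of this list differ from that of Cish was not tested. Igf1, a growth factor gene, was at -2.00 and -2.48 in wild type and -3.75 and -4.02 in knockout. Both knockout arrays were more than 1 log2 unit lower, with a difference of -1.65 ± 0.22 (SE, n = 2 per group; limma unadjusted p = 0.0011, adjusted p = 0.24), and other probes gave -1.30 and -1.98. Ccnd1, the cyclin D1 gene, was at -0.15 and 0.12 against -0.76 and -1.22 (-0.97 ± 0.22). Bcl2, the anti-apoptotic gene, was at 0.74 and 0.91 against 0.26 and 0.34 (-0.52 ± 0.13, other probes -0.39 each), and Cdkn1a, a cell cycle inhibitor gene, had -0.38 ± 0.15.

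In this list 0 genes passed the adjusted threshold, 3 were lower and 0 higher at an unadjusted p under 0.05 (limma), where 5.54% and 7.95% of all genes were, and 6 had both knockout arrays below wild type, against 20.2% of all genes. Without miR-223 knockout replicate 1 the median turned to 0.10. It was -0.35 without miR-223 knockout replicate 2, -0.42 without wild type replicate 1 and -0.07 without wild type replicate 2. Fos and Egr1, immediate-early genes and named here after their values were seen, were low on knockout array 1 alone. Fos was at 0.19 there against 3.24 to 4.16 on the other arrays, and Egr1 at 0.99 against 2.74 to 3.77. The survival genes Mcl1 and Bcl2l1, also named after their values were seen, had differences of -0.03 and 0.03, each with an SE under 0.2.

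Of the cell type marker genes, 0 passed the adjusted threshold (limma), and for some lists the knockout arrays differed from each other. Of 15 granulocyte markers 13 were measured, all well above background on all 4 arrays, with Mpo, Elane, Camp and Ltf among them, and their summed level was 11.84 and 11.91 in wild type and 11.93 and 12.07 in knockout. Of these 13 granulocyte markers, 11 had a positive and 2 a negative difference, with a median of 0.15, where 54.5% of all genes were positive. Macrophage and monocyte markers had 14 of 16 with a negative difference, against 45.5% of all genes, and a median of -1.09, which was -0.63 with knockout array 1 alone and -1.41 with knockout array 2 alone. Their summed level was 7.15 and 7.25 against 7.41 and 7.57, with Ly6c1 and Adgre1 at differences of 0.47 and 0.75. At an unadjusted limma p under 0.05, 8 of these 16 were lower and 2 higher, where 5.54% and 7.95% of all genes were. Both knockout arrays were below wild type for 11 of the 16, against 20.2% of all genes, and above for 2, against 27.7%. Mast cell and basophil markers had 8 of 9 negative (median -1.35, and -0.52 and -2.16 with knockout array 1 or 2 alone). Their summed levels were 6.01 and 6.17 against 5.52 and 4.60, and Cma1, Mcpt4, Tpsb2 and Tpsab1 were not well above background. Both knockout arrays were below wild type for 8 of these 9 and above for 0. At an unadjusted limma p under 0.05, 2 were lower and 0 higher. Dendritic cell and MHC class II markers had 8 of 11 negative, with sums of 7.46 and 7.57 against 7.53 and 6.96, so that knockout array 1 lay within the wild-type range. Their median was 0.04 with knockout array 1 alone and -0.58 with knockout array 2 alone. Lymphocyte markers had 3 of 5 positive (sums 1.15 and 0.67 against 1.53 and 1.26), and erythroid and megakaryocyte markers 2 of 4 (sums 1.93 and 3.29 against 1.19 and 1.53). The lymphocyte marker Cd79a and the erythroid marker Hba-a1 were not well above background on wild-type array 2, nor the dendritic cell marker Siglech on knockout array 2. Each was tested only through the group in which it is high, so that the direction counts of these 3 lists rest partly on the filter. The part of these cell types in the values of Cish, Igf1, Ccnd1 or Socs3 was not tested. In sorted cells measured in bulk, fewer cells of a type and less RNA per cell cannot be told apart.

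Eosinophil markers, 6 of 9 measured, did not separate the genotypes but the arrays. Of the 6, 5 had a negative difference, against 45.5% of all genes, and the median was -0.32. Gata1 was tested only through wild type, where it is high, and Ccr3 only through knockout, by the filter on background. The summed level of eosinophil markers was 3.44 and 5.90 in wild type and 4.21 and 4.62 in knockout, and the granule protein gene Prg2 was at 2.17 and 5.11 against 3.15 and 3.63. Wild-type array 2, which was low for Socs1, was thus the highest for eosinophil markers. This was not particular to them. The sums of erythroid and megakaryocyte (3.29), dendritic cell (7.57) and mast cell and basophil markers (6.17) were also highest on that array. The lymphocyte sum was lowest there (0.67), and the granulocyte and macrophage sums were neither. Whether any of these lists bears on Socs1 was not tested.

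**Figure D4:**
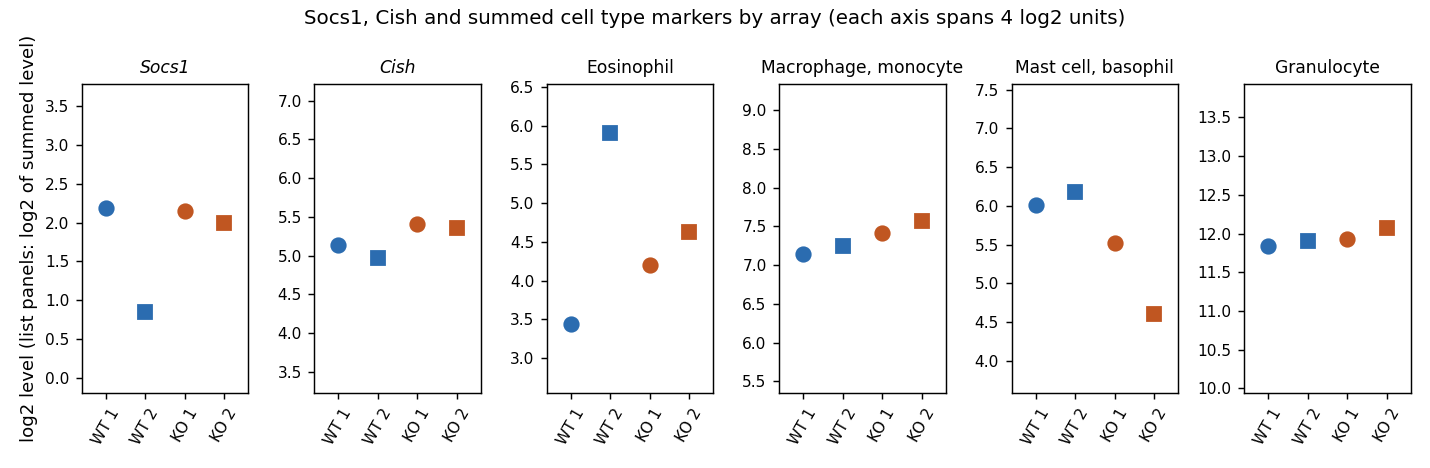
Level of Socs1 and Cish and the log2 summed level of 4 marker lists on each array, each panel spanning 4 log2 units (blue, wild type; orange, knockout). Wild-type array 2 is lowest for Socs1 (0.84) and highest for eosinophil markers (5.90). It is also highest for mast cell and basophil markers (6.17), which are lowest on knockout array 2 (4.60).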

How the data were processed

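The intensity values per spot are those the authors deposited, made with Agilent Feature Extraction 10.5.1.1 on array design 014868, per the file headers: local background and spatial trends were removed within each array, with surrogate values for dim spots and no normalization between arrays. A table of log2 values, also deposited by the authors, equalled log2 of that intensity shifted by 1 constant for each array, within 0.01 for 99.8% of probes, with a median of 5.03 on each array. How they were centred is not stated, and they served as an alternative. From the intensities, control spots, spots with an outlier flag and probes left with no spot on an array were taken out (41150 probes remained), log2 values of a probe's spots were averaged, and the 75th percentile of the array, at intensities of 586 and 486 in wild type and 515 and 494 in knockout, was subtracted. Between 57.6% and 63.5% of an array's probes exceeded background by the scanner software's flag (called well above background), and 0 spots were saturated. All arrays lie on 1 slide. The number of arrays limits the precision, with a median SE of 0.156.

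Probes were named through RefSeq accessions (26873 by systematic name, 110 by another accession, 14167 by array name). Each gene is read by its brightest probe, and 16773 genes well above background on both arrays of a group were tested with limma 3.58.1 in R 4.3.3 (lmFit and eBayes, two-sided, Benjamini-Hochberg over all genes at 0.05). Other probes were tested in a fit over 25050 probes. The test was checked on simulated arrays. Named were the 8 genes with all probes, up to 4 genes per pathway list with the smallest p, and the 5 genes most like Cish and most like the gene with the widest range. The 8 genes and the lists were chosen with earlier results of these data known. The list entries Ly6g, Cebpe, Lif, Dusp5, Ear2, Siglec5, Hbb-b1 and Trbc1 were not matched by symbol and not analysed here (Emr1, an older symbol of Adgre1, was counted once, as Adgre1), and some genes of the pathway are not reported here.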

Additional observations from a re-analysis of the deposited data

How the results depend on the processing

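None of the 8 reached an adjusted p under 0.05 (limma) with any of the 10 alternatives. Over all genes, normexp background correction called 2 higher and 3 lower, and the other alternatives called 0. Jak2, Cish and Pim2 kept their direction under all 10, with differences of -0.28 to -0.033 for Jak2 (-0.059 with the mean of all probes, -0.033 without miR-223 knockout replicate 2) and 0.066 to 0.27 for Pim2, the lower without wild type replicate 2. Genes with both knockout arrays above both wild-type arrays numbered 1 with normexp background correction, 3 with the mean of all probes and 2 to 4 with an array left out. Genes below numbered 0 with the authors' deposited log2 values, 0 with the mean of all probes, and 1 to 3 with an array left out, where fewer arrays overlap less. The cause of the other shifts was not tested. Shares of all genes above or below were not computed for the alternatives, so nothing is read from these counts. Stat5b turned to -0.0043 with quantile normalization. With an array left out, Stat5a ran from -0.10 to 0.19, Stat5b from -0.085 to 0.12, Socs1 from -0.12 to 1.23, Socs2 from -0.14 to 0.029 and Pim1 from -0.047 to 0.27. Replicate numbers are shared by the genotypes, but the labels do not say that they pair samples. The correlation over genes of same-numbered arrays' deviations from their group means was 0.17, from 2 pairs only. With the replicate number as a block, 0 genes passed and the adjusted p of Cish was 0.371. Where an array was left out, the lone array was assumed to vary like the other group.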
